A study of Homo sapiens with 6 samples.

Results

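Homologous recombination and Fanconi anaemia genes were followed in A549, a long-established cell line from a human lung adenocarcinoma, after transfection with CONCR siRNA or with a control siRNA. The genes were a list of 37, chosen by name: Fanconi proteins, nucleases, resection factors, the BRCA proteins, strand exchange factors, and the complex that dissolves joint molecules. Of 22411 genes that a transcript cluster (the array's unit for a gene) named alone, 32 were on the list, each through 1 transcript cluster. No transcript cluster named FANCA, FANCD2, RBBP8 or BRCA2 alone, and RAD54B matched a cluster that also carries another gene. These 5 are therefore not analysed here. RAD51B had signals below the detection filter, a log2 signal above 4 on at least 3 of 6 arrays, so 31 genes were tested.

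The CONCR siRNA group received a combined pair of siRNAs against CONCR, a long noncoding RNA whose gene symbol is DDX11-AS1, and the control group received a control siRNA. Both were given at 40 nM, repeated after 24 h, with Lipofectamine 2000, and each group had 3 arrays. All 6 came from 1 cell line. The submitters call the knockdowns independent without saying whether the cultures were grown separately, so the p-values reflect the spread among these arrays alone, which may be technical. The study asked how CONCR acts in sister chromatid cohesion.

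Recombination and the Fanconi pathway repair DNA breaks and crosslinks between the strands. In the Fanconi pathway, a core complex attaches ubiquitin to the FANCD2-FANCI pair at a blocked fork, which brings nucleases to cut the crosslink free. The break that results is resected, prepared for strand exchange under the guidance of BRCA1, PALB2 and BRCA2, paired with the sister chromatid and finally separated by BLM and its partners or by nucleases. Cells make many of these proteins mainly in S and G2 phase, when a sister chromatid is present.

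FANCF was the 1 gene of the 31 that passed the test, and it fell. Most of the others lay slightly below control without passing, which does not show that they were unchanged. By limma with Benjamini-Hochberg adjustment over all 32540 tested transcript clusters and a threshold of 0.05, 1 of 31 was called lower, against 1.50% of all tested. None was called higher, against 0.384% of all tested, so 1 of 31 was called in either direction beside 1.88% of all tested. At an unadjusted p under 0.05, 8 of 31 were lower and 0 higher, against 7.43% and 5.31% of all tested. The sign was negative for 26 of 31, against 47.0% of all tested transcript clusters. The median log2 fold change (CONCR siRNA minus control siRNA, here and below) was -0.10 over the 31 genes, beside 0.01 over all tested. All 3 CONCR siRNA arrays lay below all 3 control siRNA arrays for 12 of the 31, against 10.1% of all tested, and above them for MUS81 alone, against 9.00%. Many tested clusters name no single gene. Over the 15497 tested named genes, 1 cluster each, 2.01% were called lower and 0.60% higher. At an unadjusted p under 0.05, 8.84% of these were lower and 6.04% higher, and 45.1% had a negative sign. Their CONCR siRNA arrays lay all below the controls for 12.8% and all above for 11.7%. These genes were measured on the same 6 arrays, so their counts are not independent of one another. In bulk samples, fewer cells of a kind and less RNA per cell cannot be told apart.

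**Figure D1:**
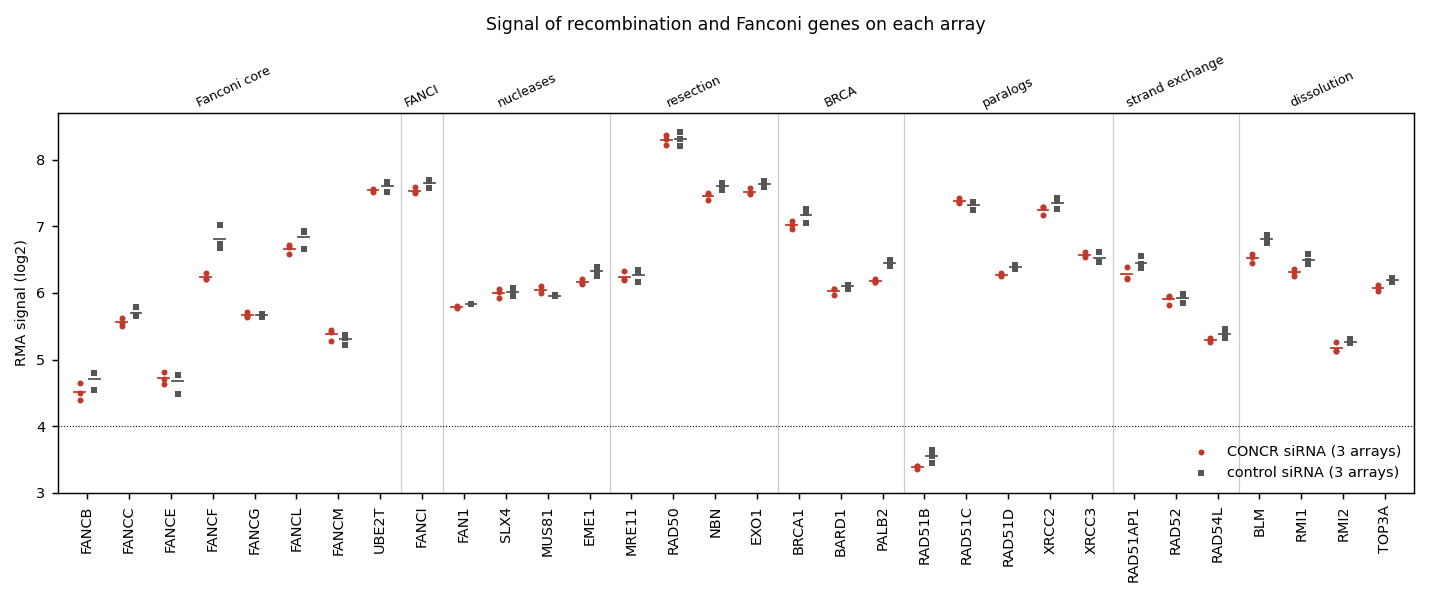
Log2 RMA signal (vertical axis) of the 32 measured genes (horizontal axis, grouped by role) on each array, with CONCR siRNA as red circles, control siRNA as grey squares and short lines for the means of 3 arrays. FANCF shows the widest gap between the groups, while RAD51B lies below the dotted filter line at 4. Levels of different genes are not comparable, since each has its own probes.

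The arrays were alike in distribution. Array medians over all transcript clusters were 3.83 to 3.89, and correlations across tested clusters were 0.989 to 0.993 within groups and 0.987 to 0.991 between them. The knocked-down RNA had a log2 signal of 4.46 ± 0.21 on CONCR siRNA arrays, against 4.69 ± 0.04 on control siRNA arrays (SD, n = 3 each), and this difference of -0.23 did not pass (limma adjusted p = 0.42), so it does not check the labels. Of the A549 markers, 4 of 6 epithelial ones and all 5 measured NRF2-driven ones averaged above a log2 signal of 6, while EPCAM was below the filter. None of the 10 tested A549 markers was called. All 3 CONCR siRNA arrays lay below all 3 control siRNA arrays for 4 of them, against 10.1% of all tested transcript clusters. The same 4 were lower at an unadjusted p under 0.05, against 7.43%. They were AKR1C2 at -0.25, CDH1 at -0.22, AKR1C1 at -0.22 and AKR1B10 at -0.19, with limma adjusted p from 0.10 to 0.26. The other 4 tested epithelial markers had a positive sign: KRT8 at 0.07, KRT7 at 0.05, KRT18 at 0.03 and KRT19 at 0.02. Of the other NRF2-driven markers, AKR1C3 was at -0.07 and NQO1 at 0.04. The differences of the 4 separated markers are similar in size to those of PALB2 and RMI1. Their part in the values of the recombination and Fanconi genes was not tested. Of 21 measured markers of alveolar type II cells, fibroblasts, leukocytes and endothelium, none averaged above 6, and none of the 11 that passed the filter was called.

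The Fanconi core complex is the ubiquitin ligase of the pathway, with FANCL as its catalytic subunit, FANCM as the arm that reaches DNA and UBE2T as the partner that supplies the ubiquitin. FANCF is the adaptor that holds parts of the complex together. FANCF had log2 signals of 6.21, 6.21 and 6.30 on the CONCR siRNA arrays, against 6.67, 6.74 and 7.02 on the control siRNA arrays. The groups did not overlap, and the spread was wider among the controls because of replicate 3. The means were 6.24 ± 0.05 on CONCR siRNA arrays, against 6.81 ± 0.19 on control siRNA arrays (SD, n = 3 each). FANCF fell by 0.57 (SE 0.10, 95% confidence interval -0.80 to -0.34, 1.48-fold lower, limma adjusted p = 0.041). Leaving out any 1 of the 6 arrays ended the call, with adjusted p from 0.051 to 0.15 and differences from -0.64 to -0.46.

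The other 7 tested subunits of the core group were not called. FANCL was at -0.17 (SE 0.09), with 6.70, 6.58 and 6.72 on CONCR siRNA arrays and 6.66, 6.91 and 6.93 on control siRNA arrays. Its groups overlapped through control replicate 1 alone. FANCB was at -0.21 (SE 0.10), with 4.64, 4.39 and 4.49 with CONCR siRNA and 4.55, 4.79 and 4.80 with control siRNA, again overlapping through control replicate 1. FANCC was at -0.14 (SE 0.06), and its arrays did not overlap, with the highest CONCR siRNA array at 5.62 and the lowest control array at 5.65. FANCG, a scaffold of the complex, averaged 5.67 in both groups (difference 95% confidence interval -0.12 to 0.12). FANCE, which contacts FANCD2, was at 0.05 (SE 0.09), FANCM at 0.07 (SE 0.07) and UBE2T at -0.07 (SE 0.06). The lowest bound of these 7 intervals was that of FANCB, -0.43, and the differences between subunits were not tested. Of the FANCD2-FANCI pair, FANCI averaged 7.53 ± 0.05 on CONCR siRNA arrays, against 7.65 ± 0.07 on control siRNA arrays (SD, n = 3 each), a difference of -0.12 with adjusted p = 0.47 by limma.

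**Figure D2:**
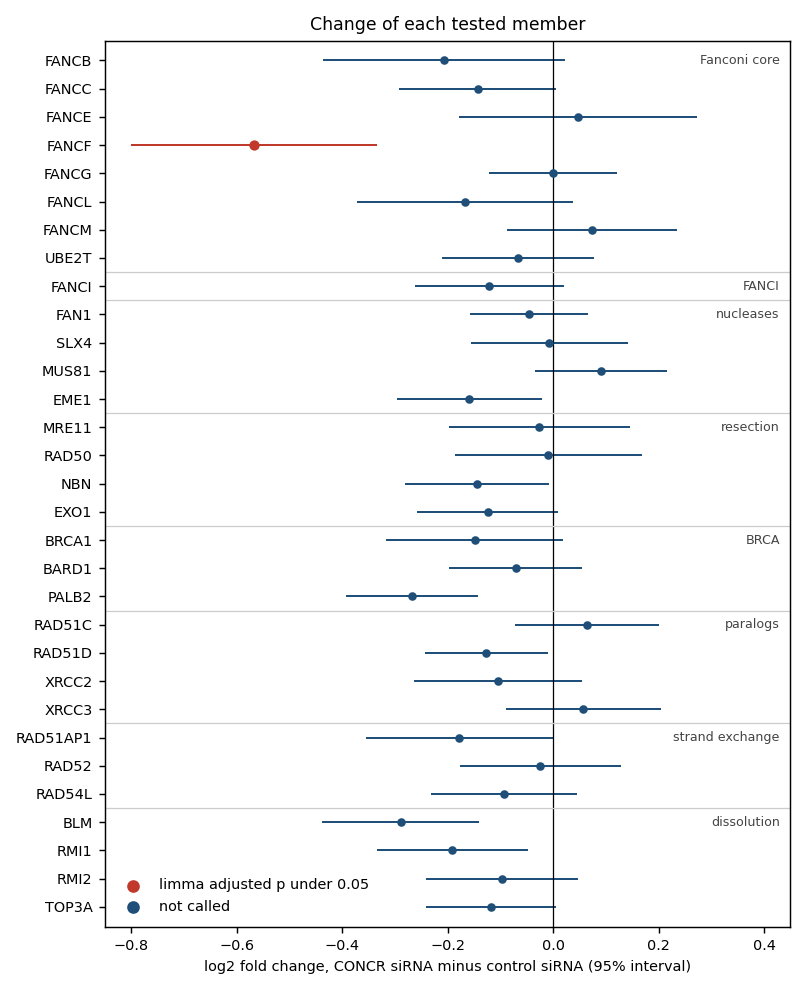
Log2 fold change of the 31 tested genes (horizontal axis, CONCR siRNA minus control siRNA) with 95% confidence intervals from limma, in rows grouped by role. FANCF, in red, is the 1 gene called, at -0.57, and the intervals of the other 30 all stay within 0.5 of 0 on the log2 scale.

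Nucleases that act at crosslinks and joint molecules gave no call. SLX4, the scaffold that gathers nucleases, was at -0.01 (SE 0.06) and the crosslink nuclease FAN1 at -0.05 (SE 0.05). MUS81 and EME1, which form 1 nuclease that cuts forks and Holliday junctions, lay on opposite sides of 0. MUS81 had 6.0, 6.11 and 6.04 with CONCR siRNA and 5.96, 5.97 and 5.95 with control siRNA, a difference of 0.09 (SE 0.05). EME1 had 6.21, 6.13 and 6.15 with CONCR siRNA and 6.25, 6.39 and 6.33 with control siRNA, a difference of -0.16 (SE 0.06). The arrays of each gene were fully separated, upward for MUS81 and downward for EME1, yet neither passed (limma adjusted p = 0.57 and 0.30).

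Break end resection starts with the MRE11-RAD50-NBN complex and is extended by EXO1. MRE11 and RAD50 had nearly equal means in the groups, at 6.24 with CONCR siRNA and 6.27 with control siRNA for MRE11, and at 8.30 in both for RAD50. Their intervals were -0.20 to 0.14 and -0.18 to 0.17. NBN, the subunit that recruits the ATM kinase, had 7.50, 7.39 and 7.48 with CONCR siRNA and 7.55, 7.61 and 7.65 with control siRNA. Every NBN value with CONCR siRNA was below every control value, and the difference was -0.14 (SE 0.06, limma adjusted p = 0.36). EXO1, the exonuclease that lengthens the single-stranded tail, was at -0.12 (SE 0.06), also without overlap.

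The BRCA proteins prepare the resected end for strand exchange. BRCA1 had 7.09, 6.96 and 7.02 with CONCR siRNA and 7.06, 7.20 and 7.26 with control siRNA. Control replicate 1 lay between the CONCR siRNA arrays, and the difference of -0.15 (95% confidence interval -0.32 to 0.02) did not pass (limma adjusted p = 0.46). BARD1, the obligate partner of BRCA1 in its ubiquitin ligase, was at -0.07 (SE 0.05). PALB2, the bridge between BRCA1 and BRCA2, had 6.21, 6.17 and 6.17 with CONCR siRNA and 6.40, 6.45 and 6.50 with control siRNA. The PALB2 groups were separated by more than their own spread, and it came close to the threshold at -0.27 (SE 0.05, 95% confidence interval -0.39 to -0.14, limma adjusted p = 0.063).

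RAD51B, RAD51C, RAD51D, XRCC2 and XRCC3 are related proteins that assist strand exchange. RAD51D was at -0.13 (SE 0.05), with 6.26, 6.29 and 6.25 with CONCR siRNA and 6.41, 6.42 and 6.36 with control siRNA. XRCC2, its partner in 1 complex, was at -0.10 (SE 0.07). RAD51C and XRCC3, which pair with each other, were at 0.06 (SE 0.06 each). None of these 4 passed, and the CONCR siRNA and control siRNA arrays overlapped for all but RAD51D. RAD51B, untested, had 3.36, 3.41 and 3.41 with CONCR siRNA and 3.45, 3.56 and 3.64 with control siRNA, all under the filter and taken as too dim to test.

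Among other strand exchange factors, RAD51AP1, which stimulates strand pairing, was at -0.18 (SE 0.07), RAD54L, a motor that moves along DNA, at -0.09 (SE 0.06), and RAD52, an annealing protein, at -0.02 (SE 0.06). The arrays overlapped for all 3. RAD51AP1 had 6.39 on CONCR siRNA replicate 1, next to 6.38 on control replicate 1, and the other arrays were 6.22 and 6.22 with CONCR siRNA and 6.44 and 6.55 with control siRNA. RAD51AP1 was not called (limma adjusted p = 0.38).

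The complex that dissolves double Holliday junctions is made of the helicase BLM, the topoisomerase TOP3A and the partners RMI1 and RMI2. All 4 had a negative sign and none was called, with a median of -0.15. BLM had 6.58, 6.44 and 6.54 with CONCR siRNA and 6.74, 6.83 and 6.87 with control siRNA, a difference of -0.29 (SE 0.06, 1.22-fold lower, limma adjusted p = 0.084). RMI1 had 6.26, 6.31 and 6.35 with CONCR siRNA and 6.44, 6.58 and 6.48 with control siRNA, a difference of -0.19 (SE 0.06, limma adjusted p = 0.23). TOP3A was at -0.12 (SE 0.05) and RMI2 at -0.10 (SE 0.06). CONCR siRNA and control siRNA arrays were separated for BLM, RMI1 and TOP3A and overlapped for RMI2.

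For the 30 genes that were not called, the intervals limit how large a change could be. The lowest bound was -0.44, for BLM, which is 1.35-fold lower, and the highest was 0.27, for FANCE, which is 1.21-fold higher. The interval excluded 0 for 7 of the 30, all on the lower side: EME1, NBN, PALB2, RAD51D, RAD51AP1, BLM and RMI1. Standard errors ran from 0.05 for FAN1 to 0.10 for FANCF, around a median of 0.06, beside 0.07 over all tested transcript clusters.

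The shift of the genes varied between arrays of 1 group. Averaged over the 31 genes, the deviation from each gene's own mean of 6 arrays was -0.03, -0.06 and -0.06 on the CONCR siRNA arrays and 0.01, 0.08 and 0.07 on the control siRNA arrays. Control replicate 1 was the lowest control array for 20 of 31 genes, and CONCR siRNA replicate 1 the highest of its group for 17. Without FANCF the averages were -0.02, -0.05 and -0.06 with CONCR siRNA and 0.00, 0.07 and 0.05 with control siRNA, so the order did not rest on that gene. Over 19 listed genes of S phase the same averages were -0.03, -0.07 and -0.09 with CONCR siRNA and 0.06, 0.07 and 0.06 with control siRNA. Over 19 listed genes of G2 and mitosis they were 0.00, -0.08 and -0.06 with CONCR siRNA and -0.01, 0.07 and 0.09 with control siRNA. Over all tested transcript clusters they lay between -0.01 and 0.02. Of the S phase genes 17 of 19 had a negative sign, against 47.0% of all tested, with a median of -0.04. Called lower were 3 of the 19 (CDC45, CCNE1 and RRM2), against 1.50% of all tested. RRM2 (limma adjusted p = 0.041) has 2 transcript clusters, of which the brightest was used. Whether these 3 calls hold under the alternative fits was not examined. Next by p among the S phase genes were CCNE2, a cyclin of S phase entry, at -0.36 and the replication clamp PCNA at -0.15, neither called. Of the G2 and mitosis genes none was called. Of these 19, 5 were lower at an unadjusted p under 0.05, against 7.43% of all tested. The sign was negative for 17 of them, with a median of -0.08. The smallest p among them were those of cyclin B1, CCNB1, at -0.19 and the topoisomerase TOP2A at -0.26. The part of the cell cycle in the values of the recombination and Fanconi genes was not tested.

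**Figure D3:**
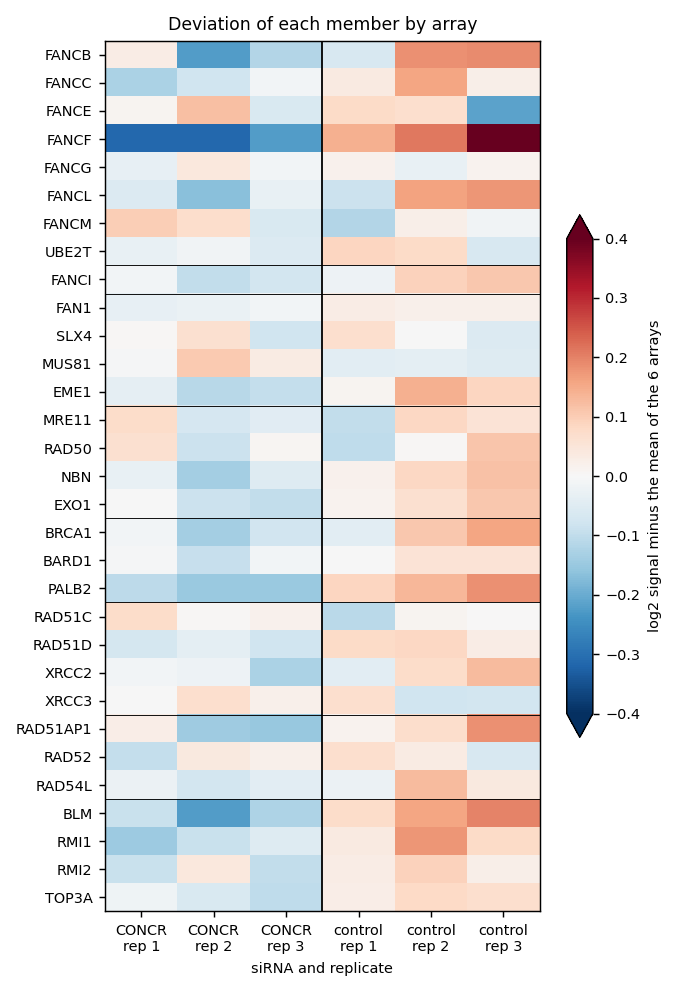
Deviation of each gene's log2 signal from its own mean of 6 arrays (colour, with red higher and blue lower), with the 31 tested genes in rows and the 3 CONCR siRNA arrays left of the 3 control siRNA arrays. Most rows are bluer at left, control replicate 1 is paler than control replicates 2 and 3, and FANCF, which runs past the colour scale on control replicate 3, stands out.

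Of 45 further genes of these pathways, listed by name, 38 were tested and 1 was called, against 1.88% of all tested transcript clusters. DCLRE1A, the exonuclease SNM1A that digests past a crosslink, had 6.30, 6.17 and 6.27 with CONCR siRNA and 6.76, 6.99 and 7.02 with control siRNA. Its arrays did not overlap, and it fell by 0.67 (SE 0.08, 95% confidence interval -0.87 to -0.48, 1.60-fold lower, limma adjusted p = 0.014). Without control replicate 1 the call was kept (adjusted p = 0.015), and without any other single array it was lost, with adjusted p from 0.053 to 0.079. DCLRE1B, its relative at telomeres, was at -0.16 (SE 0.08) and not called.

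None of the 38 was called higher, against 0.384% of all tested transcript clusters. The sign was negative for 27, against 47.0% of all tested, and their median was -0.04. SFR1, which with SWI5 assists strand exchange, had 5.89, 5.83 and 5.71 with CONCR siRNA and 6.19, 6.11 and 6.35 with control siRNA, at -0.41 (SE 0.08, limma adjusted p = 0.068). SWI5 itself was at -0.08 (SE 0.05). FIGNL1, an ATPase of recombination, was at -0.16 (SE 0.05), with a limma adjusted p of 0.24. Of the 10 tested regulators of strand exchange, 0 were called. ERCC1, the partner of the XPF nuclease, was at 0.19 (SE 0.06, limma adjusted p = 0.21), and its arrays with CONCR siRNA all lay above the controls. In the remaining groups the genes with the smallest p were CENPX (-0.17) and FAAP20 (0.07) of the core accessory proteins, and BABAM2 (-0.14) and BRIP1 (-0.11) of the BRCA1 complexes. They were USP1 (-0.06) and WDR48 (-0.01), which remove ubiquitin from FANCD2, RPA3 (-0.07) and RPA2 (-0.04) of the single-strand binding complex, MAD2L2 (-0.04) and REV3L (-0.01) of translesion synthesis, and MCM9 (-0.09) and MCM8 (-0.11) of a helicase. None of these 12 was called. CENPS, SLX1A, SLX1B, RTEL1 and POLN matched no transcript cluster alone, and SEM1 was below the filter.

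**Figure D4:**
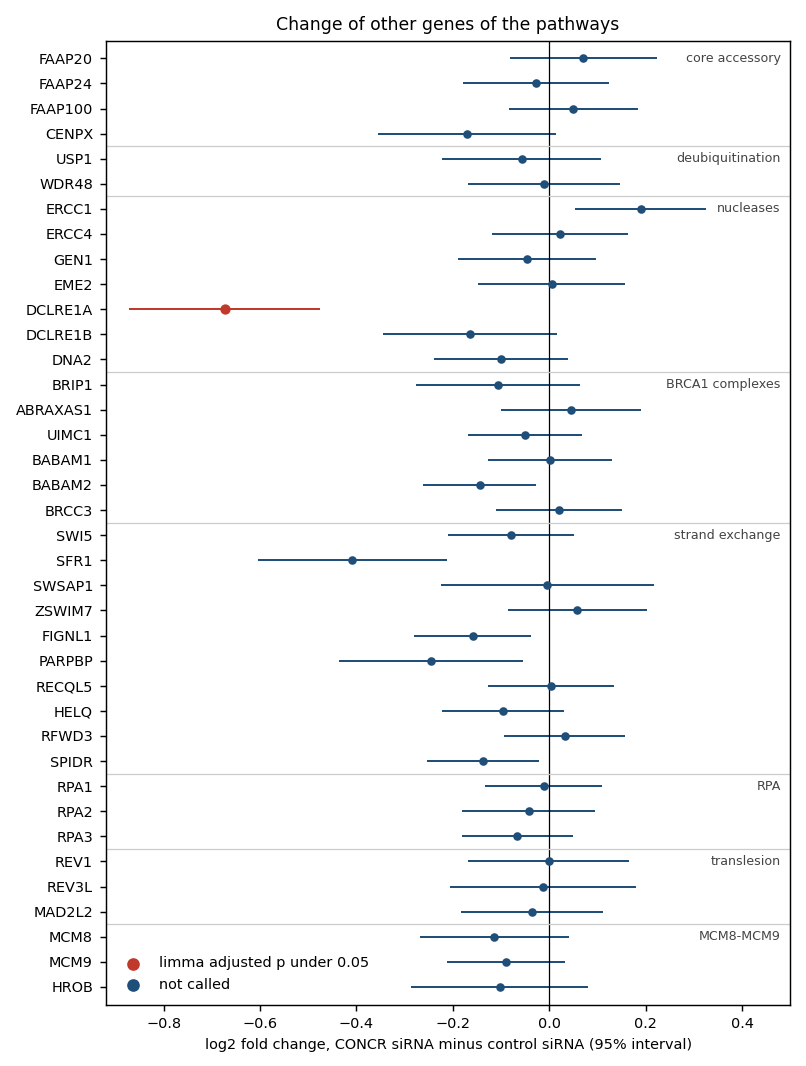
Log2 fold change of the 38 further tested genes (horizontal axis, CONCR siRNA minus control siRNA) with 95% confidence intervals from limma, in rows grouped by role. DCLRE1A, in red, is the 1 gene called, at -0.67, and SFR1 at -0.41 is the next lowest.

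The promoters of FANCF, the called gene, and of PALB2, BLM and RMI1, the 3 next by p, are shown so that their letters can be set beside the motif counts. Each is the 250 bases before the gene's start in RefSeq on GRCh38.p14, written 5′ to 3′ along the gene. The FANCF stretch is chr11:22625824-22626073 on the minus strand and the PALB2 stretch chr16:23641311-23641560 on the minus strand. The BLM stretch is chr15:90717096-90717345 on the plus strand, and the RMI1 stretch, at the first of its 2 annotated starts, is chr9:83980109-83980358 on the plus strand. Capitals mark the CCAAT box (CCAAT or its reverse complement) and the CHR element (TTTAAA).
FANCF: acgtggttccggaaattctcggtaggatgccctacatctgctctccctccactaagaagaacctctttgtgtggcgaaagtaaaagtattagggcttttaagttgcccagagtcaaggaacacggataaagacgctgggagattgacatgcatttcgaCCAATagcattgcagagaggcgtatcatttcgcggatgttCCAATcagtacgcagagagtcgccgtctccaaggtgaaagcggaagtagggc
PALB2: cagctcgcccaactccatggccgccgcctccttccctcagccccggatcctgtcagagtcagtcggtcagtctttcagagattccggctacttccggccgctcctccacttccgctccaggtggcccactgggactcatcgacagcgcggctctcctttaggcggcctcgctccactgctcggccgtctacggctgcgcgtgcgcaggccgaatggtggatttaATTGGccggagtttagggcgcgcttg
BLM: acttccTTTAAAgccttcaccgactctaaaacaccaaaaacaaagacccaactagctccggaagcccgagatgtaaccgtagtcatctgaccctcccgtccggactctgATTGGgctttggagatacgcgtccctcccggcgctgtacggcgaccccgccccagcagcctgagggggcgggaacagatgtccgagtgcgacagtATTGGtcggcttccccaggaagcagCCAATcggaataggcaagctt
RMI1: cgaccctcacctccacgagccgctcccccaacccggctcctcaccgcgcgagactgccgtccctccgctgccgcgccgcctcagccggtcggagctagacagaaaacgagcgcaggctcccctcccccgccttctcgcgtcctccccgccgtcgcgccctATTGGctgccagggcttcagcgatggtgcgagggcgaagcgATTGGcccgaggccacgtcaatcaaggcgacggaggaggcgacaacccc

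FANCF held 2 CCAAT boxes, whose first bases lie 92 and 52 bases before the start, and PALB2 held 1, at 26 bases. BLM held 3, at 141, 46 and 21 bases, and a CHR element at 244 bases. RMI1 held 2 in the stretch shown, at 90 and 49 bases, and an E2F site 32 bases before its other start. Motifs were sought on both strands of windows from 250 bases before to 50 after each start, and 28 of the 31 tested genes had such a window. A CCAAT box was found for 12 of the 28 (42.9%), against 41.6% of 11279 tested genes with a window. An E2F site, spelled TTTCCCGC, TTTCGCGC, TTTGCCGC or TTTGGCGC, was found for 4 (EXO1, FANCC, RMI1 and XRCC2), which is 14.3%, against 6.01%. A CHR element, TTTGAA or TTTAAA, was found for 4 (BLM, EXO1, FANCC and UBE2T), which is 14.3%, against 20.3%. The share for CCAAT boxes was close to that of all tested genes, and the other 2 rest on 4 genes each. Over all 35116 windows the shares were 34.6% for CCAAT boxes, 3.31% for E2F sites and 24.0% for CHR elements. No spelled motif contains another. A match is a description of letters and shows no binding.

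Some of these genes share a start region with a gene on the other strand, so the neighbours' signals were read beside theirs. Within 1000 bases, 10 pairs had both genes tested, covering 9 of the genes, and no neighbour was called. The median log2 fold change was -0.15 for the listed gene of each pair and 0.01 for the neighbour, with 5 of 10 neighbours below 0. The largest difference was that of NBR1, an autophagy receptor gene, 1 of 2 neighbours of BRCA1, at 0.17 (SE 0.06, limma adjusted p = 0.31), with 6.65 with CONCR siRNA and 6.48 with control siRNA. BRCA1 itself was at -0.15. MOSPD2, opposite FANCB, was at 0.11 (SE 0.07). DCTN5, a dynactin subunit that starts opposite PALB2, was at -0.11 (SE 0.05), with 8.12 with CONCR siRNA and 8.23 with control siRNA. NBR2, the other neighbour of BRCA1 and a noncoding gene, was at -0.05 (SE 0.08), and MRPL27, a mitochondrial ribosomal protein gene opposite EME1, at 0.03 (SE 0.05). SMCR8, an autophagy gene opposite TOP3A, was at -0.13 (SE 0.07), near the -0.12 of TOP3A. The other 4 were ANKRD49 (opposite MRE11) at -0.08, FERRY3 (opposite RAD51AP1) at 0.03, DNASE1 (opposite SLX4) at 0.01 and ZFYVE21 (opposite XRCC3) at -0.003. The differences between the genes of a pair were not tested.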

How the data were processed

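RNA of each sample (300 ng) was hybridised to 1 Affymetrix whole-transcript array, with 3 arrays per group. The deposited values are log2 signals, made by the authors with RMA in Affymetrix Power Tools, per the submitters' processing notes. The version and genome build of that step are not given in the sources used here. RMA equalises the distributions of the arrays, so a change in total RNA per cell cannot be seen. Arrays have no read depth, and their number limits the precision.

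Of 70523 probe sets, 2995 without a transcript cluster identifier were left out and 67528 transcript clusters kept, of which 32540 passed the filter. Symbols came from the platform annotation, updated through RefSeq (GRCh38.p14). Of the 67528, 23781 had 1 symbol, and the brightest stood for a gene with several clusters. The comparison used limma 3.58.1 under R 4.3.3 (lmFit and eBayes, two-sided, Benjamini-Hochberg). The fit was checked on simulated data. The members and lists were chosen with earlier results of these data known. All members were to be named, with called genes of the other lists and up to 2 per list with the smallest p. SWI5, the A549 markers and the neighbour genes named are outside that rule; all but the neighbours, given in full, were chosen with their values in view. Alternatives were other filters, scalings and variance models, the replicate number as a block, and leaving out each array.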

Additional observations from a re-analysis of the deposited data

How the results depend on the processing

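The median log2 fold change of the 31 genes stayed between -0.13 and -0.09 under every alternative run, and 23 to 26 of 31 kept a negative sign (19 of 22 under the strict filter). The call of FANCF was less stable. Its difference was -0.57 with no filter, with an unmoderated statistic and with the replicate block (adjusted p = 0.10, 0.16 and 0.11), -0.56 with quantile normalization (0.053) and -0.57 with median centring (0.061). None of these 5 fits called it, and then 0 of the 31 genes were called lower. The fits without 1 array, which ranged from -0.64 to -0.46 for FANCF, also called 0 each. Array weights called 2 (FANCF and PALB2). The strict filter at a log2 signal of 6, an intensity trend with robust estimation, and a fit of 1 transcript cluster per named gene each called 3 (FANCF, PALB2 and BLM). No fit called a gene higher. Over all tested clusters the 613 calls became 238 with no filter, 1102 with the strict filter, 965 with the trend, 169 unmoderated, 51 with the replicate block, and 129 to 411 without 1 array. The filters change how many clusters are adjusted over, and the cause of the other shifts was not tested.

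Sign changes occurred for genes near 0: RAD50 was at 0.0009 with quantile normalization and FANCG at 0.0027 with array weights. Without 1 array the ranges that crossed 0 were -0.048 to 0.097 for FANCE, -0.023 to 0.016 for FANCG, -0.083 to 0.009 for MRE11, -0.063 to 0.044 for RAD50, -0.063 to 0.017 for RAD52 and -0.040 to 0.030 for SLX4. Same-numbered arrays of the groups did not deviate together (correlations -0.27, -0.16 and -0.08), so the numbers were not taken as pairs. DCLRE1A kept its call under both filters, both scalings, the trend and array weights, and lost it unmoderated (adjusted p = 0.092) and with the replicate block (0.10). Each member had 1 transcript cluster, so averaging clusters changed nothing.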
